A study of Monodelphis domestica and Mus musculus with 26 samples.

Results

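Mouse spermatogonia, the germ cells that divide by mitosis at the base of the seminiferous tubule, were examined in 3 single-cell RNA libraries of adult mouse testis. A barcode was kept with at least 1000 counts and 500 detected genes, and 25445 of 35712 deposited mouse barcodes were kept. A kept cell counted as a spermatogonium when its summed counts of Dmrt1, Crabp1, Stra8, Zbtb16, Uchl1, Kit, Sohlh1 and Esx1 reached 2.5, its summed counts of the somatic genes Cst9, Cst12, Aard, Dcn and Cyp17a1 stayed below 1.5, and Prm1, Prm2, Tnp1 and Tnp2 together gave less than 1% of its counts. This held for 1205 of the 25445 kept cells, of which replicate 1 gave 321, replicate 2 gave 163 and replicate 3 gave 721. The other 24240 kept cells, called the rest of the testis below, were the first comparison set. The second was a meiotic prophase set of 4301 cells outside the spermatogonia, which had at least 5 summed counts of Sycp1, Sycp2, Sycp3, Dmc1, Meiob, Hormad1 and Prdm9 and met the same somatic and protamine limits.

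The series compares spermatogenesis in mouse and opossum and holds 26 samples, of which these 3 are the mouse single-cell libraries. All came from testes of adult mice of 8 to 16 weeks, bought from Jackson Laboratories, that were dissociated with collagenase and trypsin without sorting and captured with 10x 3′ chemistry. Replicates 1 and 2 carry the strain label C57BL6/J, replicate 3 carries no strain label, and no treatment or mutation is given for any of them. The labels do not say that the libraries came from separate animals, so the p-values below measure the spread between these 3 libraries, which may be technical.

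Spermatogonia include a small pool of stem cells, kept by glial cell line-derived neurotrophic factor (GDNF) and fibroblast growth factor signals from Sertoli cells, and a larger pool of progenitors. Retinoic acid moves the progenitors into the KIT-positive differentiating state, in which they go through further mitotic divisions. A later retinoic acid signal induces STRA8 and MEIOSIN, which start the meiotic programme, and the X chromosome is then silenced as the cells pass through meiotic prophase.

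Spermatogonia made up 3.94% of kept cells in replicate 1 (95% exact Clopper-Pearson interval 3.53% to 4.39%), 2.08% in replicate 2 (1.78% to 2.42%) and 7.61% in replicate 3 (7.09% to 8.16%), with a mean of 4.55%. These intervals cover counting error only, do not overlap, and rest on a threshold in counts that a deeper cell reaches more easily. With marker sums of 5 or more the shares were 2.95%, 1.11% and 4.16%. With at least 2000 counts per cell they were 6.33%, 2.22% and 9.98%. The median spermatogonium held 5818 counts in replicate 1, 2563 in replicate 2 and 3278 in replicate 3, against 2638, 4626 and 2916 in the rest of the testis. The summed spermatogonial counts came to 2.92e+06, 496978 and 2.84e+06, so replicate 2 was the least precise library. With each cell thinned to 2000 counts, spermatogonia showed a median of 1345, 1380 and 1412 detected genes, above the 1263, 1285 and 1296 of the rest in every library. This left out 10, 33 and 62 shallower spermatogonia, and 3060 of 7817, 1986 of 7672 and 2847 of 8751 cells of the rest. Replicates 1 and 2 shared 198 barcode sequences, 76 of them kept in both, and no shared barcode was a spermatogonium.

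The genes that chose the cells are given as levels only, with no test. A level is in counts per 1000000 (CPM) of the summed counts of a cell set in a library, in the order replicate 1, 2 and 3. Dmrt1, a transcription factor that holds spermatogonia in mitosis, stood at 216, 396 and 276 CPM in spermatogonia and at 6.76, 2.16 and 6.07 CPM in the rest. Zbtb16, which encodes the stem cell factor PLZF, stood at 61.1, 80.3 and 90.2 CPM against 3.04, 1.97 and 2.15 CPM. Kit, the receptor of the differentiating state, varied most, with 34.8 and 57.4 CPM in replicates 1 and 2 and 144 CPM in replicate 3, against 5.16 to 5.81 CPM in the rest. Stra8, the gene that retinoic acid induces before meiosis, stood at 264, 442 and 395 CPM against 19.5, 2.72 and 4.45 CPM. At least 0.5 counts of Stra8 were held by 142, 76 and 357 spermatogonia and by 307, 85 and 140 cells of the rest. Prm1, Prm2, Tnp1 and Tnp2, which set the 1% limit, summed to 3921, 3884 and 125 CPM in spermatogonia. The part of that limit in the unequal shares of spermatogonia was not tested. The 8 markers summed to 1588, 2364 and 1792 CPM in spermatogonia, 27.6 to 77.7 CPM in the rest and 7.12 to 29.6 CPM in the prophase set.

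The label was checked on a list of other genes known from stem and undifferentiated spermatogonia. Their summed level was 728, 744 and 1127 CPM in the chosen cells, 164, 137 and 216 CPM in the rest and 148, 143 and 273 CPM in the prophase set, so the chosen cells were highest in every library. Leydig cell genes (16 genes) summed to 19.0, 125 and 18.3 CPM in spermatogonia against 586 to 905 CPM in the rest, with 2 genes at 0. Immune genes (18 genes) summed to 29.2, 6.70 and 54.0 CPM against 34.3 to 125 CPM, again with 2 genes at 0. Peritubular and stromal genes (16 genes) summed to 25.4, 16.3 and 87.5 CPM against 115 to 295 CPM. Sertoli cell genes (17 genes) were lower too in sum, with 249, 236 and 194 CPM against 420 to 853 CPM and 2 genes at 0. Their median per cell was 204, 132 and 0 CPM against 618, 46.0 and 403 CPM, so replicate 2 went the other way. At least 3 of their counts were held by 19.3%, 2.45% and 4.16% of the chosen cells, against 32.4%, 24.5% and 30.2% of the rest. At least 5 counts of the 7 genes that chose the prophase set were also held by 41.7%, 16.6% and 65.5% of the chosen cells in replicates 1, 2 and 3, so the chosen set overlaps that threshold. The meiotic prophase list, which includes those genes, summed to 2892, 3310 and 5300 CPM in the chosen cells. It summed to 2861, 2494 and 5891 CPM in the prophase set and 2420, 2141 and 3173 CPM in the rest. This list therefore did not set the chosen cells apart from the prophase set. Endothelial genes (15 genes) did not separate the sets, with 52.0 to 62.0 CPM against 36.1 to 89.2 CPM.

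A few very deep cells in the chosen set also went against the label. Of the 1205 cells, 38 in replicate 1, 2 in replicate 2 and 10 in replicate 3 held over 15000 counts, and they carried 44.1%, 7.09% and 7.73% of the summed counts. In the deep cells of replicate 1 the undifferentiated list summed to 222 CPM and the list of pachytene spermatocyte genes to 14905 CPM. The other chosen cells of that library had 1128 CPM and 1145 CPM for the same lists. Pachytene genes reached 15800 and 14433 CPM in the deep cells of replicates 2 and 3, beside 14859 to 20668 CPM in the whole prophase set. The label therefore did not describe the deep cells by these markers, and list counts that they moved are also given without the cells over 15000 counts, a limit chosen after the data were seen.

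**Figure D1:**
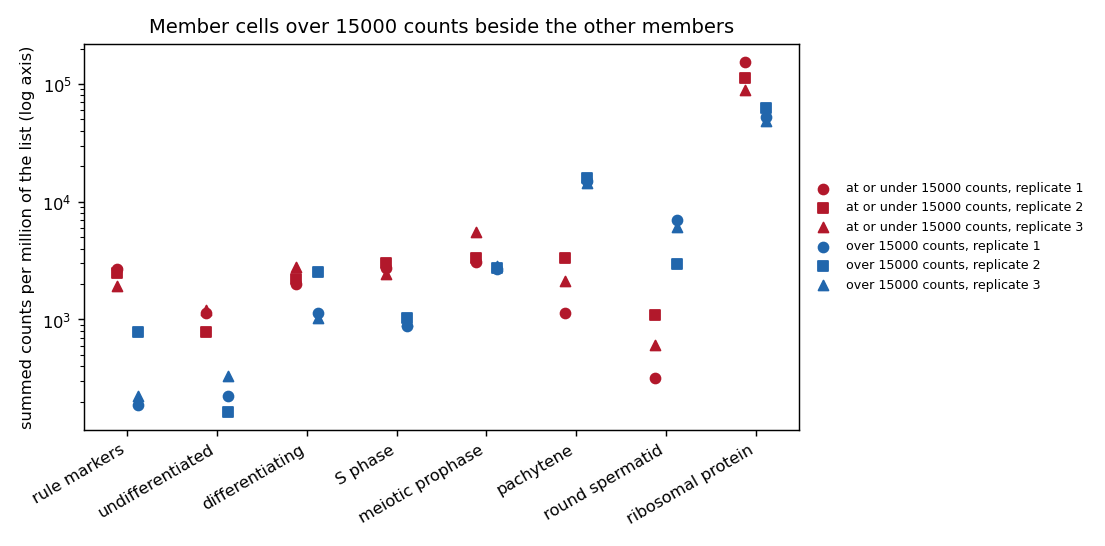
Summed level of each gene list in CPM (log axis) in chosen cells over 15000 counts and in those at or under 15000 counts, with a marker for each of the 3 libraries. In replicate 1 the pachytene list stood at 14905 CPM in the deep cells and at 1145 CPM in the others, and the rule markers at 189 and 2694 CPM.

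The threshold itself cut through a mixed zone. Cells just inside it, with marker sums of 2.5 to 3.5, numbered 43, 39 and 138. Their Rhox13, an X-linked gene of differentiating spermatogonia, stood at 15.7, 162 and 122 CPM, and their Ccnd2, a cyclin of the same state, at 1.04, 35.8 and 4.24 CPM. Cells just outside it, with sums of 1.5 to 2.5, numbered 102, 47 and 199 and had Rhox13 at 5.60, 17.6 and 65.1 CPM and Ccnd2 at 0, 3.86 and 9.50 CPM, higher than inside in replicate 3. Pachytene genes summed to 14142, 6969 and 6502 CPM just inside and to 15817, 17495 and 9166 CPM just outside. In replicate 1 the cells inside the margin were deep, with a median of 20424 counts, against 2124 and 2213 in replicates 2 and 3.

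Against the rest of the testis, spermatogonia had higher levels of 19 of 27 tested genes of the undifferentiated state and 17 of 25 S phase genes, and of 6 of 11 DNA methylation and 32 of 75 ribosomal protein genes. They had lower levels of 19 of 20 pachytene genes and of all 20 round spermatid and all 16 Leydig genes tested. Of 19505 genes tested, 11096 differed (56.9%), with 4778 higher (24.5%) and 6318 lower (32.4%). Without cells over 15000 counts, 4856 of 18655 genes were higher and 7276 lower, and without replicate 3 the counts were 4265 and 3953. A gene was called by edgeR's quasi-likelihood test with library as a block at a Benjamini-Hochberg adjusted p below 0.05 and a log2 difference of at least 1, and log2 differences are given with their standard error (SE). The CPM printed here are scaled to the total of a set alone, while the log2 differences also carry TMM factors, which were 1.07 to 1.40 for spermatogonia and 0.701 to 0.95 for the rest. The median log2 difference over all genes was -0.43 with these factors and 0.11 with totals alone, a setting chosen after the data were seen, under which 6253 genes were higher and 4081 lower. The excess of lower over higher genes therefore turned with the scaling. The tested genes lie outside the membership rule, but cells were chosen by markers that go with other spermatogonial genes. The somatic and protamine limits also left out somatic cells and spermatids, whose lists were lower. The calls therefore measure how alike the 3 libraries were and are no independent evidence of cell type.

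**Figure D2:**
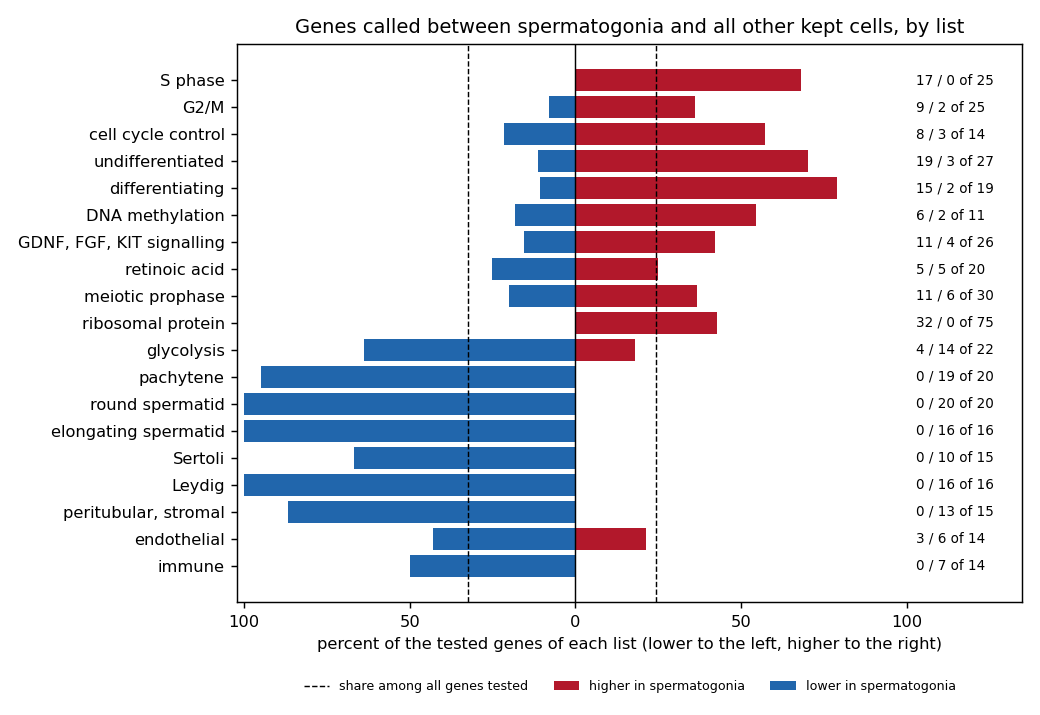
Percent of the tested genes of each list that were higher or lower in spermatogonia than in the rest of the testis, with dashed lines at the shares of all tested genes (24.5% higher, 32.4% lower). The undifferentiated, differentiating and S phase lists lie mostly on the higher side, and the pachytene, spermatid and Leydig lists on the lower side.

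Genes of the undifferentiated state were mostly higher. Of 27 tested, 19 were higher and 3 lower, with a median log2 difference of 2.25. Ret, the signalling receptor for GDNF (chr6:118128706-118174769, minus strand, GRCm39), had 11.3, 14.1 and 6.61 CPM in spermatogonia and 0.171, 0.229 and 0.118 CPM in the rest. All 3 spermatogonial values lay far above all 3 values of the rest, and the log2 difference was 5.31 (SE 0.56, edgeR adjusted p = 7.2e-06). Gfra1, which encodes the co-receptor that binds GDNF, was less separated, with 12.3, 19.9 and 21.8 CPM against 4.36, 2.12 and 9.59 CPM. Its log2 difference of 1.28 (edgeR adjusted p = 0.018) did not pass without replicate 2, where it was 0.91 (adjusted p = 0.125), or with each estimated count rounded up, where it was 0.99.

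Transcription factors and RNA-binding proteins of the stem and progenitor state followed. Sall4, a zinc finger factor of the germ line (chr2:168590252-168609863, minus strand), had 23.6, 22 and 48.7 CPM against 0.267, 0.236 and 1.08 CPM. Lin28a, which blocks let-7 maturation, had 15.3, 6.04 and 49.1 CPM against 0.182, 0.0764 and 1.08 CPM. Foxo1, a factor that stem cells need to persist, had 64.8, 69.8 and 122 CPM against 3.86, 1.48 and 6.99 CPM, a log2 difference of 3.95 (SE 0.37, edgeR adjusted p = 4.7e-06). For each of these genes the spermatogonial and other values did not overlap, and replicate 3 was the highest spermatogonial library. Egr4, an early response factor, was the most even, with 39.3, 43.9 and 45.7 CPM against 1.00 to 2.95 CPM (log2 difference 4.01, and 4.74 without cells over 15000 counts). Glis3, a zinc finger factor needed for undifferentiated spermatogonia (chr19:28236251-28657667, minus strand), had 37.5, 30 and 116 CPM against 1.21 to 9.78 CPM.

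Not every gene of the list was higher. Id4, an inhibitor of differentiation used as a stem cell reporter in mouse (chr13:48414558-48419502, plus strand), had 45.8, 9.07 and 16.3 CPM in spermatogonia. It had 48.6, 47.1 and 41.3 CPM in the rest and 77.4, 69.7 and 94.2 CPM in the prophase set. The log2 difference from the prophase set was -2.60 (edgeR adjusted p = 0.0019). That from the rest was -1.59 (adjusted p = 0.0057), and without replicate 2 it was -1.13 and not called (adjusted p = 0.062). With each estimated count rounded up it was -0.89, under the limit of 1. Etv5, a GDNF target, had 7.36, 7.87 and 5.12 CPM against 2.24, 1.14 and 5.23 CPM in the rest, and the groups overlapped, with a log2 difference of 0.75 that was not called.

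**Figure D3:**
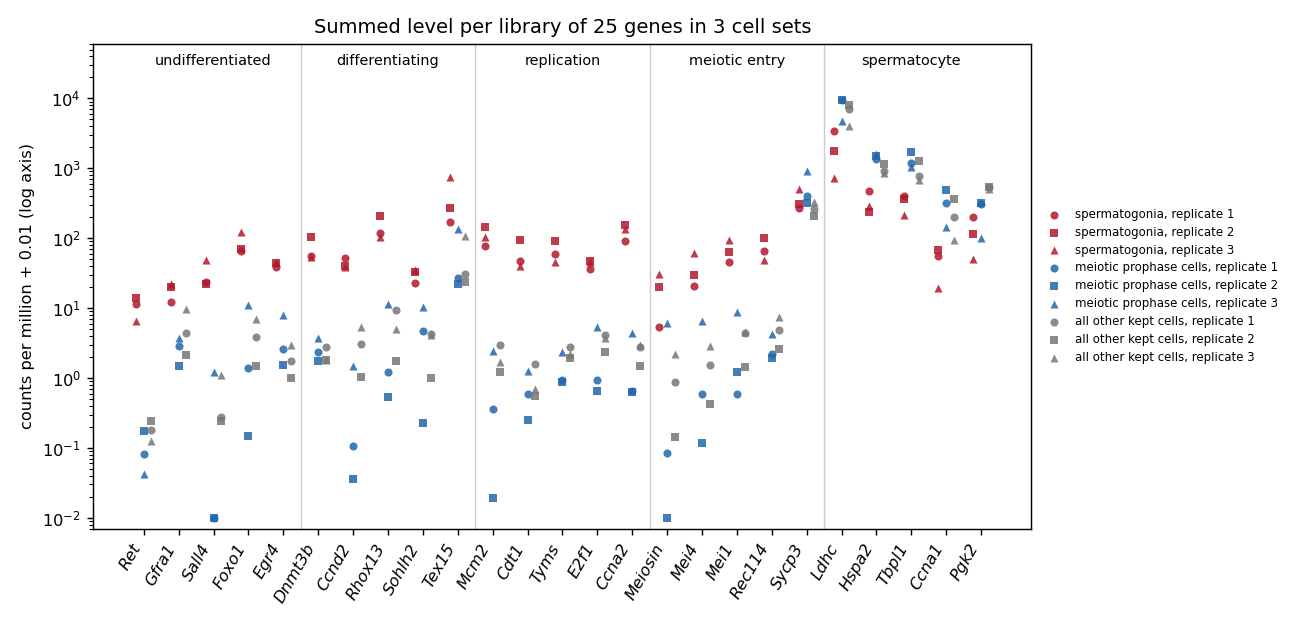
Level of 25 genes in CPM plus 0.01 (log axis) in spermatogonia, the prophase set and the rest, with a marker shape for each of the 3 libraries. Ret, Sall4 and Mcm2 lie highest in spermatogonia in every library, and Ldhc lies lowest there; Sycp3 is among the genes that chose the prophase set.

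Genes of differentiating spermatogonia were higher for 15 of 19 tested and lower for 2, with a median log2 difference of 3.11; without cells over 15000 counts, 15 were higher and 3 lower. Dnmt3b, a de novo DNA methyltransferase that comes on with differentiation, had 54.8, 102 and 53.9 CPM against 2.74, 1.81 and 1.83 CPM (log2 difference 4.39, SE 0.38, edgeR adjusted p = 3.5e-06). Ccnd2, the cyclin D of the retinoic acid transition (chr6:127102125-127129156, minus strand), had 51.7, 39.6 and 38.4 CPM against 3.06, 1.04 and 5.37 CPM. It nearly vanished in the prophase set, at 0.0955, 0.0265 and 1.45 CPM. The helix-loop-helix factor Sohlh2, partner of SOHLH1, had 22.8, 32.4 and 34.8 CPM (log2 difference 2.81). Of X-linked genes in the list, Rhox13 stood at 118, 208 and 106 CPM against 9.48, 1.74 and 4.97 CPM, and the TFIID subunit gene Taf7l stood at 238, 489 and 389 CPM against 30.3, 14.9 and 31.3 CPM. Rhox genes have near copies whose reads the counting may have split, so their levels are uncertain.

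The lower genes of the differentiating list were Dmrtb1 and Ppm1j, joined by Elmo1 (log2 difference -1.16) without cells over 15000 counts. Dmrtb1, a DM-domain factor of late spermatogonia, had 446, 287 and 103 CPM in spermatogonia and 813, 1360 and 410 CPM in the rest, a log2 difference of -2.30 (SE 0.44, edgeR adjusted p = 0.00054). Ppm1j, a protein phosphatase gene, had 52.2, 18.1 and 8.32 CPM against 65.9, 52.8 and 42.7 CPM (log2 difference -1.91), and with no replicate block it was not called (-1.53), while without cells over 15000 counts the difference was -3.78. In spermatogonia both were highest in replicate 1, the library with the most counts in deep cells, and the part of those cells in their level was not tested.

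Of 26 tested genes of GDNF, FGF, KIT and related signalling, 11 were higher and 4 lower, with a median log2 difference of 0.92; without cells over 15000 counts, 10 of 24 were higher and 6 lower. Besides Ret, the receptor Fgfr1 had 11.2, 13.6 and 18.4 CPM (log2 difference 1.59) and Fgfr3 had a log2 difference of 2.66. Downstream, Etv4 stood 3.42 higher on the log2 scale, and Rps6kb1, the kinase of the mTORC1 pathway that stimulates translation, had 61.6, 85.6 and 115 CPM (log2 difference 2.31). Kitl, the ligand of KIT made by Sertoli cells, had 0, 1.63 and 2.22 CPM in spermatogonia against 3.63, 1.72 and 13.2 CPM in the rest, with overlap across libraries (log2 difference -3.23). The ligands Wnt6 and Cxcl12 differed by -3.47 and -2.45. Gdnf itself was near its detection limit, at 0.905, 0 and 1.22 CPM against 0.384, 0.439 and 0.821 CPM, and was not called.

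Of 20 retinoic acid genes tested, 5 were higher and 5 lower, shares near or below the 24.5% and 32.4% of all genes tested, and their median log2 difference was -0.16; without cells over 15000 counts the counts were 6 and 7, and with totals alone 6 and 2 (median 0.42). Among genes of reception, the receptor Rarg had 15.5, 12.1 and 16.5 CPM against 1.10, 0.821 and 0.875 CPM, with no overlap (log2 difference 3.43, SE 0.47, edgeR adjusted p = 4.5e-05). The receptor Rara, with 18.2, 19.5 and 21.6 CPM against 8.97, 8.78 and 12.3 CPM, was not called (log2 difference 0.42). The binding protein genes Rbp4 and Crabp2 were higher by 3.92 and 4.18 on the log2 scale. Among genes of synthesis, Aldh1a1, a retinaldehyde dehydrogenase of Sertoli cells, differed by -5.48, and Rdh11, a retinol dehydrogenase, by -2.19. Aldh1a2, the form found in spermatocytes, had 48.0, 39.1 and 48.8 CPM against 72.2, 82.5 and 67.5 CPM (log2 difference -1.27), a call that ended without replicate 2 (-0.96), with counts rounded up (-0.80) or with totals alone (-0.69).

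Meiosin, the partner of STRA8 at meiotic entry (chr7:18832971-18852293, minus strand), had 5.4, 20.1 and 31.1 CPM in spermatogonia. The rest held 0.860, 0.134 and 2.20 CPM and the prophase set 0.0746, 0 and 6.04 CPM. The spermatogonial values varied widely between libraries but did not overlap those of the rest, and the log2 difference was 3.64 (SE 0.61, edgeR adjusted p = 0.0002).

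DNA replication genes were mostly higher in spermatogonia. Of 25 S phase genes, 17 were higher and none was lower, with a median log2 difference of 1.99; without cells over 15000 counts, 18 were higher. Mcm2, a subunit of the replicative helicase (chr6:88860452-88875762, minus strand), had 77.1, 145 and 105 CPM against 2.99, 1.21 and 1.70 CPM, a log2 difference of 5.22 (SE 0.42, edgeR adjusted p = 2.8e-06). Cdt1, which loads the helicase at origins, had 47.3, 94.2 and 39.9 CPM against 1.57, 0.546 and 0.693 CPM. E2f1, the transcription factor that drives S phase genes, had 36.4, 47.8 and 45.9 CPM (log2 difference 3.10). Replicate 2 was the highest for each of these genes, and the prophase set nearly lacked Mcm2, at 0.356, 0.00924 and 2.41 CPM. Pcna, the sliding clamp that also serves DNA repair, was closer, with 172, 245 and 178 CPM against 87.4, 94.6 and 104 CPM, and was not called (log2 difference 0.44), although it passed with totals alone (1.04).

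Genes of G2 and M phase did not move as a block. Of 25 tested, 9 were higher and 2 lower, with a median log2 difference of 0.33; without cells over 15000 counts, 11 were higher and 2 lower. Cenpa, the centromeric histone (chr5:30824121-30842921, plus strand), had 198, 334 and 240 CPM against 6.05, 1.79 and 4.02 CPM (log2 difference 5.53, SE 0.46, edgeR adjusted p = 2.8e-06). Ccna2, the cyclin A of dividing cells, had 91.2, 157 and 134 CPM against 2.78, 1.47 and 2.97 CPM. Mki67, the proliferation antigen, had 65.1, 67.6 and 209 CPM against 5.16, 2.23 and 14.5 CPM. Aurka, the spindle pole kinase, went the other way, with 93.9, 106 and 66.1 CPM against 227, 378 and 135 CPM (log2 difference -1.96, SE 0.39, edgeR adjusted p = 0.00065). Ccnb2, a cyclin B gene, was lower at -1.25, a call that ended without replicate 2 (-0.93) or without replicate 3 (-1.23, adjusted p = 0.0533), and with counts rounded up (-0.78) or totals alone (-0.65). Against the prophase set, 5 of the 25 genes were higher and 7 lower, beside 27.2% and 27.6% of all genes tested there. The counts were 7 and 4 without cells over 15000 counts and 9 and 2 with totals alone.

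Regulators of the cell cycle were higher for 8 of 14 tested and lower for 3, or 2 without cells over 15000 counts and 1 with totals alone. Ccnd1 had 80.0, 111 and 163 CPM against 4.01, 2.04 and 4.94 CPM (log2 difference 4.43). Cdkn2a, whose locus encodes the inhibitors p16 and p19ARF (chr4:89192708-89212890, minus strand), had 211, 284 and 194 CPM against 10.9, 8.25 and 8.21 CPM, a log2 difference of 4.04 (SE 0.36, edgeR adjusted p = 4e-06). The inhibitor Cdkn1c was lower, with 17, 11.5 and 12 CPM against 68.2, 41.5 and 69.3 CPM (log2 difference -2.69).

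DNA methylation genes were higher for 6 of 11 tested and lower for 2, for 8 and 2 without cells over 15000 counts, and for 8 and 0 with totals alone. Besides Dnmt3b, the maintenance enzyme gene Dnmt1 had 75.6, 113 and 203 CPM against 5.00, 2.41 and 11.0 CPM (log2 difference 3.93, SE 0.37, edgeR adjusted p = 4.7e-06). The de novo enzyme gene Dnmt3a had 39.0, 72.1 and 53.0 CPM (log2 difference 3.32). Tet3, which oxidises methylcytosine, had 54.6, 70.4 and 117 CPM against 2.91, 1.49 and 2.98 CPM (log2 difference 4.42). For all 4 of these genes the 3 spermatogonial values lay above those of the rest. Of the lower genes, Dnmt3l, a cofactor of de novo methylation, had 9.96, 0 and 2.48 CPM against 9.22, 9.06 and 12 CPM. Its call (-1.73) ended with totals alone (-1.28), with counts rounded up (-0.95), with no replicate block (-1.50) and without replicate 2 (-1.36) or replicate 3 (adjusted p = 0.18).

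Of 17 germ line RNA regulators tested, 6 were higher and 5 lower, beside 24.5% and 32.4% of all genes tested. Dazl, an RNA-binding protein that promotes translation in germ cells, had 831, 1326 and 1308 CPM against 113, 15.9 and 150 CPM (log2 difference 3.46). Piwil4, which encodes the nuclear PIWI protein MIWI2, had 3.42, 5.86 and 7.59 CPM against 0.222, 0.339 and 0.230 CPM (log2 difference 3.88). Piwil1, the PIWI protein of pachytene cells, had 76.2, 15.7 and 67.2 CPM against 99.8, 57.9 and 153 CPM (log2 difference -1.60, and -0.89 with counts rounded up, which is not a call; -2.41 without cells over 15000 counts). Ddx4, the germ cell helicase gene, had 239, 215 and 366 CPM against 266, 344 and 344 CPM and was not called.

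Of 30 meiotic prophase genes tested, 11 were higher and 6 lower, with a median log2 difference of 0.28; without cells over 15000 counts, 10 were higher and 4 lower, and with totals alone 14 were higher and 1 lower. The share of chosen cells that reach the prophase threshold, given above, was highest in replicate 3, and its part in these levels was not tested. Rec114, needed for programmed DNA breaks, had 65.5, 102 and 49.4 CPM against 4.88, 2.61 and 7.55 CPM in the rest and 2.22, 1.92 and 4.26 CPM in the prophase set. Its log2 difference from the rest was 3.29 (SE 0.41, edgeR adjusted p = 2.3e-05). Mei1 and Mei4, of the same break machinery, were higher by 3.78 and 4.07, the strand exchange gene Dmc1 by 2.40, and Prdm9, which marks break sites, by 2.88. Spo11, the enzyme that makes the breaks, was lower, with 21.4, 19.4 and 23.3 CPM against 37.7, 43.3 and 55.4 CPM (log2 difference -1.62). Syce1, of the synaptonemal complex centre, had 292, 330 and 169 CPM against 471, 628 and 309 CPM (log2 difference -1.43). With counts rounded up neither gene reached the limit of 1, at -0.97 for Spo11 and -0.98 for Syce1, and with totals alone Syce1 did not, at -0.83. Sycp3, of the chromosome axis, had 274, 308 and 512 CPM against 264, 205 and 328 CPM and was not called (log2 difference -0.17, edgeR adjusted p = 0.68; 0.42 with totals alone), so its direction turned with the scaling.

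The promoters of these genes were searched for letters of motifs that go with the programmes above, over the 250 bases before the GENCODE vM39 canonical start (GRCm39) on both strands. The E2F-type motif GGCGGGAA (TTCCCGCC on the other strand) stood in 503 of 21502 protein-coding promoters (2.34%). It stood in 3 of 25 S phase promoters (12%) and in 5 of 31 meiotic promoters (16.1%). The STRA8-type motif CNCCTCAG (CTGAGGNG on the other strand) stood in 1344 of the promoters (6.25%), in none of 25 S phase promoters and in 4 of 31 meiotic promoters (12.9%). A match is a description, not a site or a cause, and a missing match says only that these letters are not in that window. Among genes called higher in spermatogonia than in the rest, the E2F-type motif stood in 2 of 17 S phase promoters (11.8%) and 2 of 11 meiotic promoters (18.2%). The windows of 60 bases below show E2F-type matches in capitals for 2 replication genes and 3 meiotic genes, written 5′ to 3′ along the gene's strand. All were called higher in spermatogonia or in the Stra8 subset described below. Rrm1 and Rad51ap2 also matched, were called higher in neither, and are not shown. Cdc6, which loads the helicase, matches at chr11:98798410-98798469 (plus strand, 191 bases before the start). Mcm4, a helicase subunit, matches at chr16:15455454-15455513 (minus strand, 223 bases before). Hormad1, of the meiotic axis, matches at chr3:95466866-95466925 (plus strand, 47 bases before), Tex12, of the synaptonemal complex, at chr9:50472681-50472740 (minus strand, 83 bases before), and Prdm9 at chr17:15784630-15784689 (minus strand, 49 bases before), where the E2F-type letters overlap 1 STRA8-type match.
Cdc6: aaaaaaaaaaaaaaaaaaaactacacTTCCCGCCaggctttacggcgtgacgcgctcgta
Mcm4: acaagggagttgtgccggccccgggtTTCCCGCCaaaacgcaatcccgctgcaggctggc
Hormad1: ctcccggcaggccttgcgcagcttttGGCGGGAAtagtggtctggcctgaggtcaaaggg
Tex12: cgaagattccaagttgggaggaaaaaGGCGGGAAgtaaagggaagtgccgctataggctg
Prdm9: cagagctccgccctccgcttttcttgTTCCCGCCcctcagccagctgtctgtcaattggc

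STRA8-type matches are shown in capitals for 2 meiotic genes, Hormad2, of the meiotic axis (chr11:4391330-4391389, minus strand, 164 bases before the start), and Spo11 (chr2:172821522-172821581, plus strand, 63 bases before). Spo11 was lower in spermatogonia than in the rest, and Hormad2 was higher in the Stra8-positive spermatogonia described below.
Hormad2: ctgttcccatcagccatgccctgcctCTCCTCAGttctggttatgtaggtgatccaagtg
Spo11: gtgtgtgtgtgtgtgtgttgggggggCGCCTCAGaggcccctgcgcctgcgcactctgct

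Genes of later germ cells were lower. None of 20 pachytene genes was higher and 19 were lower (median log2 difference -2.31), and 1 was higher and 18 lower without cells over 15000 counts. Lower too were all 20 round spermatid genes tested (median -1.79) and all 16 elongating spermatid genes tested (median -2.98). With totals alone, 16 pachytene genes were lower and 1 higher, and 17 round spermatid and 14 elongating spermatid genes were lower. Pachytene genes still summed to 7218, 4227 and 3069 CPM in spermatogonia, against 14748, 17750 and 12219 CPM in the rest. Without cells over 15000 counts they summed to 1145, 3344 and 2117 CPM. Round spermatid genes summed to 3271, 1222 and 1034 CPM against 4146 to 4281 CPM, and to 318, 1089 and 608 CPM without the deep cells. Replicate 1 was the highest library for both lists with all cells in and the lowest without the deep cells. Of somatic genes, all 16 tested Leydig genes, 10 of 15 Sertoli genes and 13 of 15 peritubular and stromal genes were lower and none was higher; without cells over 15000 counts these were 16, 13 and 14, and with totals alone 16, 9 and 9.

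Ribosomal protein genes were higher for 32 of 75 tested and lower for none, with a median log2 difference of 0.89; without cells over 15000 counts 36 were higher, and with totals alone 54. Their summed level was 109678, 109319 and 86535 CPM in spermatogonia, 45790, 33714 and 35997 CPM in the rest and 47653, 35256 and 43595 CPM in the prophase set. All 3 spermatogonial values lay well above the others. Ribosomal protein genes have many near-identical copies, so single members are uncertain.

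Of 22 glycolysis genes tested, 4 were higher and 14 lower, with a median log2 difference of -2.09; without cells over 15000 counts, 3 were higher and 15 lower (median -2.93). Gapdh, the general form of glyceraldehyde-3-phosphate dehydrogenase (chr6:125135289-125143518, minus strand), had 440, 480 and 228 CPM in spermatogonia and 47.7, 29.9 and 21.8 CPM in the rest, a log2 difference of 2.93 (SE 0.36, edgeR adjusted p = 1.8e-05). Gapdhs, the sperm form (chr7:30429200-30443106, minus strand), had 383, 221 and 100 CPM against 1247, 1055 and 885 CPM, a log2 difference of -2.97 (SE 0.43, edgeR adjusted p = 6.5e-05). The general phosphoglycerate mutase gene Pgam1 had 142, 236 and 129 CPM against 27.3, 27.9 and 29.8 CPM (log2 difference 1.92). Its other form Pgam2 had 455, 230 and 82.2 CPM against 1131, 1130 and 643 CPM (log2 difference -2.80). Ldhc, the lactate dehydrogenase of male germ cells, had 3371, 1764 and 721 CPM against 7003, 7964 and 4050 CPM (log2 difference -2.52). Without cells over 15000 counts the differences were -3.97 for Gapdhs, -4.42 for Pgam2 and -3.98 for Ldhc. For Gapdhs, Pgam2 and Ldhc the spermatogonial level with all cells in was highest in replicate 1, where the pachytene list was highest too.

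Some genes outside the lists were named by size and level. Among the highest were Smagp, a membrane adhesion protein gene, with 109, 134 and 79.8 CPM against 1.06 to 3.40 CPM (log2 difference 5.33), and the transcription cofactor gene Lmo1, with 109, 121 and 54.7 CPM (log2 difference 4.92). Auts2 had 522, 710 and 1759 CPM against 32.8, 9.43 and 62.1 CPM (log2 difference 4.41). Among the lowest were the secreted carrier genes Lcn2, with 0.434, 15.6 and 0.331 CPM against 120 to 207 CPM (log2 difference -7.00), and Ptgds, with 6.25, 30.3 and 0.336 CPM against 137 to 305 CPM (log2 difference -5.85). Lcn2 and Ptgds were each highest in the spermatogonia of replicate 2, as was the Leydig list, whose part in this was not tested.

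The comparison with the prophase set, a set of later germ cells, used the same somatic limits. Chosen cells that reached the prophase threshold stayed with the spermatogonia. Pachytene genes summed to 18761, 20668 and 14859 CPM in the prophase set, above the 14748, 17750 and 12219 CPM of the rest. The median prophase cell held 18592, 11631 and 4096 counts. By these values the set leaned to pachytene cells and is not the state next to spermatogonia. Of 16182 genes tested, 8866 were called (54.8%), 4403 higher (27.2%) and 4463 lower (27.6%). Without cells over 15000 counts, 7751 of 13547 were called. With totals alone the calls were 5975 higher and 2407 lower. That scaling moved the median log2 difference of all genes from -0.14 to 0.60. Both comparisons use the same spermatogonia, so their calls are not independent. The undifferentiated list was higher for 19 of 24 tested and lower for 2 (median log2 difference 3.80), and the signalling list for 12 of 19 with none lower. S phase genes were higher for 14 of 25 with none lower. Somatic markers moved with this contrast: Sertoli genes were higher in spermatogonia for 7 of 10 tested, with a sum of 249, 236 and 194 CPM against 60, 9.49 and 62.9 CPM, and endothelial genes for 4 of 6. With cells over 15000 counts left out, Sertoli genes were higher for 1 of 4 tested. Their part in the other calls was not tested. Meiotic genes outside those that chose the prophase set were higher for 6 of 23 and lower for 5 (median -0.01). Without cells over 15000 counts the undifferentiated list was higher for 17 of 21, the signalling list for 9 of 14, S phase genes for 13 of 25 and meiotic genes for 5 of 23, with 5 meiotic genes lower.

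Tubb5, Sdc4 and Sox4 were nearly absent from the prophase set. Tubb5, a general beta-tubulin, had 194, 192 and 174 CPM in spermatogonia and 0.178, 0 and 1.37 CPM in the prophase set, a log2 difference of 8.38 (SE 0.83, edgeR adjusted p = 0.00061). Sdc4, a cell surface proteoglycan, had 100, 89.6 and 100 CPM against 0.230, 0 and 1.59 CPM (log2 difference 7.30). These log2 differences were 7.21 for Tubb5 and 6.14 for Sdc4 without cells over 15000 counts. Sox4, an HMG box factor, had 71.3, 67.3 and 61.3 CPM against 0.184, 0.457 and 0.682 CPM. The spermatogonial values of these genes were even across libraries, while the prophase set was highest in replicate 3 for each. Among genes that were higher in the prophase set, Mesp1 had 85, 58.5 and 40.0 CPM in spermatogonia against 592, 651 and 709 CPM (log2 difference -4.21, and -4.94 without the deep cells), and Pou5f2, a POU domain factor, 6.69, 6.90 and 15.9 CPM against 62.9, 56.1 and 189 CPM (log2 difference -4.05, and -2.23 without the deep cells). Gapdhs did not differ between the sets by the test (log2 difference 0.18, edgeR adjusted p = 0.62), while Gapdh was higher in spermatogonia by 3.95 (SE 0.27).

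X-linked genes gave 1.51%, 1.87% and 2.07% of spermatogonial counts without Esx1, a mean of 1.82% (SD 0.282, n = 3). The rest of the testis gave 1.01%, 0.836% and 1.10%, and the prophase set 0.435%, 0.322% and 0.382%. The difference was 0.834 percentage points (SD 0.288) from the rest and 1.44 points (SD 0.319) from the prophase set, in the same direction in 3 of 3 libraries each. The exact two-sided sign-flip permutation p was 0.25 for each, also after adjustment over both, which is the smallest p that 3 pairs allow. Without Taf7l and Rpl36a, the most abundant X-linked genes, the differences were 0.767 and 1.37 points. Esx1 is itself X-linked and was among the markers that chose the spermatogonia and kept them out of the prophase set. Counts of Esx1 were held by 52.6%, 47.2% and 48.4% of spermatogonia in replicates 1, 2 and 3. Leaving Esx1 out of the share does not undo that choice. The rule was not run without Esx1, so the part of this choice in the X-linked differences was not tested.

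**Figure D4:**
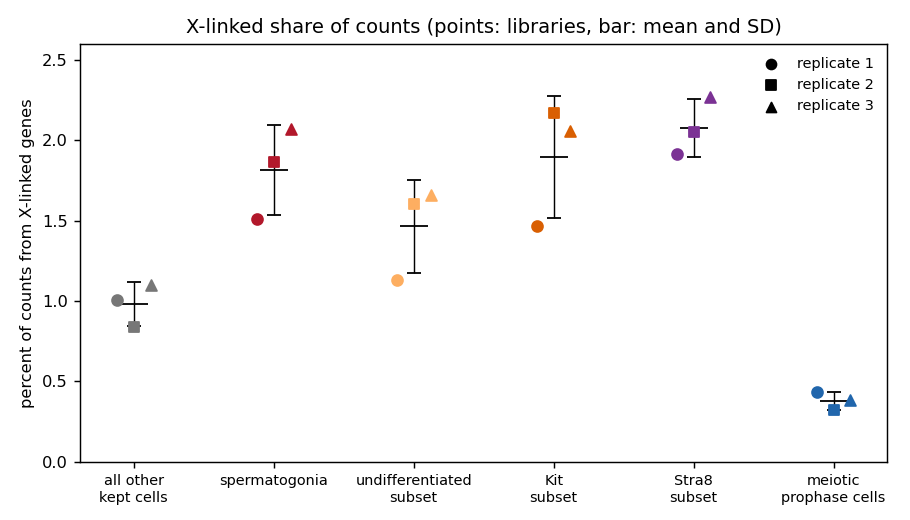
Percent of summed counts from X-linked genes in each cell set, with a point for each library and bars for the mean and SD of 3 libraries. Spermatogonia lie between 1.51% and 2.07%, above the rest (0.836% to 1.10%) and the prophase set (0.322% to 0.435%).

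By gene, 359 of 572 tested X-linked genes (62.8%) were higher in spermatogonia than in the prophase set and 40 (6.99%) lower, with a median log2 difference of 2.53. Autosomal genes were higher for 26.0% and lower for 28.4%, with a median of -0.18. The part of the choice of cells by the X-linked Esx1 in these X-linked calls was not tested either. Hmgb3, an X-linked chromatin protein gene (chrX:70591492-70605868, plus strand), had 190, 292 and 263 CPM in spermatogonia, 20.3, 11.5 and 12.4 CPM in the rest and 0.348, 0.269 and 5.97 CPM in the prophase set. Its log2 difference from the prophase set was 7.16 (SE 0.82, edgeR adjusted p = 0.00061), and 5.94 without cells over 15000 counts. Against the rest, 304 of 698 X-linked genes (43.6%) were higher and 178 (25.5%) lower. Hprt, of purine salvage, had 74.6, 130 and 114 CPM against 10.2, 5.24 and 12.2 CPM in the rest (log2 difference 2.96). Nr0b1, which encodes the nuclear receptor DAX1, was among the lower ones, with 0.444, 0 and 0.104 CPM in spermatogonia against 4.12, 1.62 and 2.97 CPM in the rest (log2 difference -4.82). Of the autosomal copies of X-linked housekeeping genes, 5 of 7 tested were lower in spermatogonia than in the prophase set and none was higher.

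Spermatogonia were then divided by counts of a few genes. The undifferentiated subset (72, 23 and 93 cells) had at least 0.5 summed counts of Zbtb16, Gfra1, Id4, Etv5, Nanos3, Ret and Upp1 and less than 0.5 of Kit and of Stra8. The Kit subset (35, 9 and 144 cells) had at least 0.5 Kit counts and less than 0.5 of Stra8, and the Stra8 subset (142, 76 and 357 cells) at least 0.5 Stra8 counts. The other 72, 55 and 127 spermatogonia met none of these. Of 79, 25 and 276 spermatogonia with Kit counts, 44, 16 and 132 also held Stra8 counts and so lie in the Stra8 subset. In the Stra8 subset, 46, 16 and 79 cells also reached the limit of the undifferentiated genes. Without cells over 15000 counts the undifferentiated subset held 54, 22 and 85 cells, the Kit subset 25, 9 and 143 and the Stra8 subset 139, 75 and 357. The subsets are ranges of counts and not cell types, and a shallow cell misses a gene more easily. The undifferentiated list, which includes genes that chose the subset, summed to 736, 1484 and 1550 CPM in the undifferentiated subset. It summed to 291, 676 and 1040 CPM in the Kit subset and 1025, 670 and 1060 CPM in the Stra8 subset, which was highest in replicate 1. Id4, a choosing gene, was lower in spermatogonia than in the prophase set. The Kit subset of replicate 2 rests on 9 cells with 23202 counts, and its Leydig genes summed to 2064 CPM against 11.7 and 54.9 CPM in replicates 1 and 3.

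With all cells in, the number of calls between the subsets depended on the tool and the scaling. Between the Kit and undifferentiated subsets, edgeR with TMM factors called 0 of 8303 genes (0%), with 229 at an unadjusted p below 0.05, while edgeR with totals alone called 7 and DESeq2 called 2. Between the Stra8 and Kit subsets, edgeR with TMM factors called 0 of 8132 genes (0%), with 590 at an unadjusted p below 0.05, while edgeR with totals alone called 234 and DESeq2 called 246. Pachytene genes summed to 11300, 2123 and 2374 CPM in the Kit subset and to 10433, 6071 and 6462 CPM in the undifferentiated subset. In the Stra8 subset they summed to 1570.5, 2964 and 1669 CPM. Without cells over 15000 counts the Kit values were 2956, 2123 and 2138 CPM. The undifferentiated values were then 788, 3519 and 2537 CPM. The calls that follow are from this setting, without cells over 15000 counts, with TMM factors. There, edgeR called 13 of 5734 genes (0.227%) between the Kit and undifferentiated subsets, 12 of them lower (0.209%) and 1 higher (0.0174%). Between the Stra8 and Kit subsets it called 293 of 7292 (4.02%), of which 68 were higher (0.933%) and 225 lower (3.09%). Genes that chose the subsets were not tested, but other genes of the same states go with them. The subset calls are therefore no independent evidence of these states.

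Of genes of the undifferentiated state, 2 of 8 tested were lower in the Kit subset than in the undifferentiated subset without deep cells, and 6 were not called. With all cells in, edgeR called none of 9 with TMM factors and 2 lower with totals alone. Egr4, with all cells in, had 55.0, 161 and 118 CPM in the undifferentiated subset, 5.19, 0 and 17.4 CPM in the Kit subset and 58.5, 17.6 and 38.2 CPM in the Stra8 subset. Glis3 had 76.1, 98.9 and 383 CPM, then 0, 0 and 38.9 CPM, then 31.5, 26.7 and 64.2 CPM. For both genes the Kit subset lay below the other subsets in replicates 1 and 3; in replicate 2 its 23202 counts are too few to place a 0 below the Stra8 subset. Without the deep cells the log2 difference of Kit from undifferentiated was -3.43 for Egr4 (SE 0.40, edgeR adjusted p = 0.016) and -4.20 for Glis3 (SE 0.46, adjusted p = 0.015), while with them it was -4.12 for Glis3 (adjusted p = 0.76). Sdc4, the proteoglycan that was high against prophase, had 185, 357 and 308 CPM and then 0, 0 and 40.6 CPM (log2 difference without deep cells -4.20, adjusted p = 0.022). Ccnd2 had 59.6, 110 and 78.4 CPM, then 0, 0 and 14.7 CPM, then 96.5, 43.8 and 42.7 CPM, but the difference between undifferentiated and Kit did not pass the test (-3.60, adjusted p = 0.058).

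**Figure D5:**
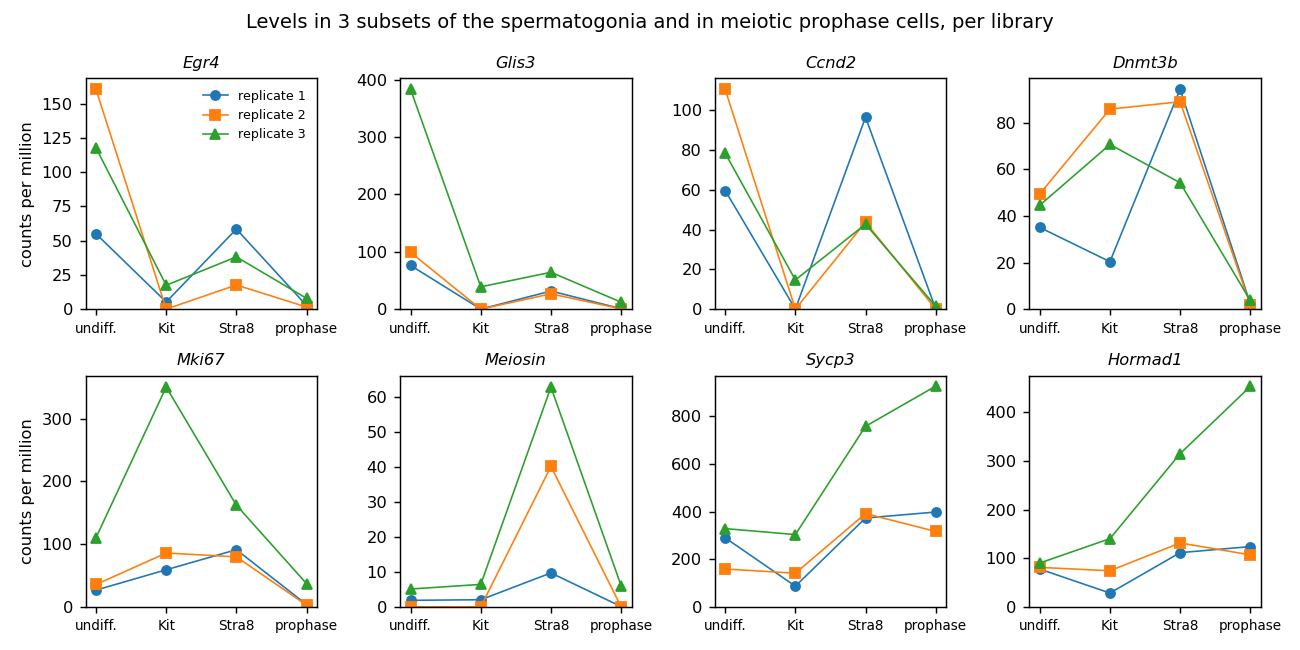
Level in CPM of 8 genes in the undifferentiated, Kit and Stra8 subsets and the prophase set, with a marker for each library and all cells in. In replicates 1 and 3 Egr4 and Glis3 are lowest in the Kit subset among the 3 subsets, and Sycp3 lies at 86.7 to 304 CPM in the Kit subset and at 373 to 759 CPM in the Stra8 subset; Sycp3 and Hormad1 are among the genes that chose the prophase set.

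Of 24 meiotic genes tested without the deep cells, 6 were higher in the Stra8 subset than in the Kit subset and none was lower, and with all cells in none was called. Sycp3 (chr10:88295431-88309099, plus strand) had 290, 159 and 329 CPM in the undifferentiated subset, 86.7, 141 and 304 CPM in the Kit subset and 373, 392 and 759 CPM in the Stra8 subset. The Stra8 subset was highest in every library, and the log2 difference from Kit was 1.38 without deep cells (SE 0.22, edgeR adjusted p = 0.00035) and 1.46 with them (adjusted p = 0.4). Sycp2, another axis gene, had 54.3, 38.5 and 206 CPM and then 109, 125 and 516 CPM (log2 difference 1.18, adjusted p = 0.0081). Hormad1 and Hormad2 were higher by 1.16 and 1.60, Tex12 by 1.17 and Msh5, of crossover formation, by 3.02. The E2F-type motif stood in 3 of these 6 promoters (50%), beside 16.1% of the whole meiotic list and 2.34% of all promoters. The STRA8-type motif stood in 2 of 6 (33.3%), beside 12.9% and 6.25%. Msh5 counts for both motifs, and its window, which touches annotated exons, is not printed. These counts rest on few genes and were not tested.

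Other genes also separated the Stra8 subset. Meiosin had 1.86, 0 and 5.10 CPM in the undifferentiated subset, 2.03, 0 and 6.42 CPM in the Kit subset and 9.70, 40.2 and 62.9 CPM in the Stra8 subset, and these values are given without a test. By Meiosin, Sycp3 and the meiotic calls above, the Stra8 subset reached toward meiotic entry. Whether its cells still divided by mitosis was not tested. Pbx3, a homeodomain factor gene chosen after its values were seen (chr2:34061469-34263154, minus strand), had 0, 0 and 33.2 CPM in the Kit subset and 51.5, 79.3 and 488 CPM in the Stra8 subset (log2 difference without deep cells 3.92, SE 0.37, edgeR adjusted p = 3.2e-06). Mki67 was lower in the Stra8 subset in replicates 2 and 3 and higher in replicate 1, at 91.1, 79.6 and 162 CPM against 59.0, 85.7 and 350 CPM, and was not called. Of genes of later germ cells, 5 of 12 pachytene, 8 of 10 round spermatid and 5 of 15 elongating spermatid genes were called lower in the Stra8 subset without deep cells and none higher. With all cells in, edgeR called none of these genes with TMM factors, and 1 of 14, 8 of 13 and 3 of 16 lower with totals alone. Ldhc, for example, had 5208, 812 and 470 CPM in the Kit subset and 528, 1136 and 170 CPM in the Stra8 subset, so replicate 2 went the other way with all cells in. The X-linked share was 1.13%, 1.60% and 1.66% in the undifferentiated subset, 1.47%, 2.17% and 2.06% in the Kit subset and 1.92%, 2.05% and 2.27% in the Stra8 subset, a description with no test. Without deep cells it was 1.86%, 1.73% and 2.03% in the undifferentiated subset, 1.90%, 2.17% and 2.11% in the Kit subset and 1.99%, 2.18% and 2.27% in the Stra8 subset, which lie closer together.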

How the data were processed

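Three-prime single-cell RNA libraries of mouse testis were used as the authors deposited them, as estimated counts for each barcode, most of them fractions; the other deposited files used hold the gene identifiers and barcodes in matrix order. Cell Ranger 6.0.1 and GRCm39 (mm39) are named, with no role, in the submitters' processing notes, and how the values became fractional is not given in the sources used here; 1.66%, 4.11% and 6.07% of matrix entries were listed at 0. Counts were summed per library and cell set, rounded, filtered with filterByExpr, scaled by TMM (library totals alone as an added alternative) and tested with edgeR 4.0.16 (R 4.3.3), with DESeq2 1.42.0 as an alternative. Library was a block because both cell sets of a comparison come from the same library. Coordinates are from GENCODE vM39, which matched 31966 of 32532 features (98.3%). The 17 genes of the rule, the 7 prophase genes in that comparison and the subset genes in theirs were not tested. Members, lists and tests were chosen with earlier results of these data known. Genes outside the lists were named from the 20 called genes with the largest log2 difference in each direction (10 within spermatogonia) that had at least 50 CPM (20 within spermatogonia) in every library of the higher set and moved the same way in all 3. Doublets were not removed. The test was checked on simulated data. Alternatives were other normalization, filters, thresholds, rounding, doublet removal by the top 8% of Scrublet scores, and leaving out each library. The opossum samples and those of other assays were not used here. A result of the meiotic gene list is not reported here.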

Additional observations from a re-analysis of the deposited data

How the results depend on the processing

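None of the called differences of the named genes and none of the X-linked differences changed direction under the alternatives run. Against prophase with marker sums of 5 or more, 8111 of 8113 genes called in both fits kept their sign. Of 2210 gene-by-setting values for 157 gene differences, 2071 kept their side of the threshold, 69 lost the call and 70 gained it. Leaving out a library in turn gave 4184 to 4496 higher and 3953 to 6524 lower genes against the rest (lowest without replicate 3), 3381 to 4432 higher and 3582 to 4053 lower against prophase, 0 to 10 higher and 0 to 265 lower for Kit against undifferentiated (265 without replicate 1, 37 without replicate 3), and 0 to 36 higher and 75 to 124 lower for Stra8 against Kit. With no replicate block the libraries gave 3980 higher and 4283 lower genes against the rest, 2977 and 3136 against prophase, and 0 and 0 in both subset comparisons. That fit also ended the calls against the rest of Gfra1 (1.23), Id4 (-1.38), Ppm1j (-1.53), Piwil1 (-1.39), Ramp2 (1.51), Hormad2 (0.92) and Tex12 (1.26). Scaled to library totals alone, a setting chosen after seeing the data, higher and lower genes were 6253 and 4081 against the rest, 5975 and 2407 against prophase, 0 and 7 for Kit against undifferentiated, and 9 and 225 for Stra8 against Kit; Sycp3 and Ccnb1, which were not called, turned in sign. The subset counts depended on many settings. For Kit against undifferentiated, higher and lower genes were 0 and 2 with DESeq2, 1 and 3 with no filter on low counts, 2 and 8 with marker sums of 5 or more, 3 and 25 with counts rounded up, 5 and 17 with a subset limit of 1.5 counts, and 1 and 12 without cells over 15000 counts, an alternative chosen after seeing the data. For Stra8 against Kit they were 23 and 223 with DESeq2, 22 and 726 with no filter, 1 and 65 with at least 2000 counts per cell, 13 and 6 with counts rounded up, 68 and 225 without cells over 15000 counts, and 20 lower without the highest doublet scores and 6 lower with a subset limit of 1.5 counts. The X-linked difference ranged from 0.578 to 1.00 points against the rest and from 1.10 to 1.62 against prophase, and the mean share of spermatogonia from 2.74% to 6.18%. The cause of these shifts was not tested. The Kit subset of replicate 2 holds 9 cells, which limits the precision of its values.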

Other observations

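Endothelial genes were the only somatic list tested here with members higher in spermatogonia than in the rest of the testis, 3 of 14 with 6 lower, beside 24.5% and 32.4% of all genes tested. The share that was higher lay below that of all genes, so the list as a whole was not raised. Without cells over 15000 counts, 3 were higher and 8 lower, and with totals alone 3 and 4. Egfl7, a secreted vessel factor gene, had 27.5, 27.0 and 16.3 CPM against 7.07, 4.06 and 2.92 CPM, a log2 difference of 1.77, and the groups did not overlap. The other members that were higher were Ramp2 and Plvap; Ramp2 lost the call without replicate 2 or without replicate 3, and Plvap without replicate 1. Cldn5, of endothelial junctions, was lower (log2 difference -4.09).

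Among the spermatogonia, 134 in replicate 1 (41.7%), 27 in replicate 2 (16.6%) and 472 in replicate 3 (65.5%) held at least 5 counts of the 7 prophase genes. By these genes the chosen cells reach into cells that share the prophase threshold, most often in replicate 3, and the thresholds are in raw counts at unequal depth. Doublet scores above the cut for the top 8% of kept cells fell on 14 (4.36%), 6 (3.68%) and 54 (7.49%) of the spermatogonia, below that share in each library.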
